A study of Mus musculus with 2 samples.

Results

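The genes described here are 7 members of the mouse PYHIN family (p200 and AIM2-like genes): Ifi203, Ifi204, Ifi205, Mnda, Mndal, Aim2 and Pyhin1. They were chosen by symbol from the 27998 rows of the deposited feature table, and all 7 symbols were found. PYHIN proteins carry a HIN domain, which binds DNA, and most also carry a pyrin domain, which recruits partner proteins. AIM2 is the cytosolic DNA receptor that assembles an inflammasome with the adaptor Pycard, while most other members are nuclear or cytosolic proteins whose genes are known to be switched on by interferon in myeloid cells. Human genes of the family include IFI16, a DNA sensor, and MNDA, named for its expression in myeloid nuclei.

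Live CD45+ cells (CD45 is the pan-leukocyte protein Ptprc) were sorted from subcutaneous tumors of B16F10, a mouse melanoma line, and profiled with 10x Genomics 3' single-cell RNA sequencing. The control hosts were Usp18f/f mice, and the knockout hosts were Usp18f/f LysM-Cre mice, both on a C57BL/6 background. Both groups carry the floxed allele, and Cre in the second is driven from the Lyz2 (lysozyme M) locus, which is active in macrophages, monocytes and neutrophils, so lymphocytes of these hosts are not targeted. Usp18 is an interferon-induced protease that restrains signalling by the type I interferon receptor. In each group 4 tumors taken 14 days after injection were pooled into 1 library, so that differences between the libraries have no replicate check, and neither the spread between mice nor their sex is given by the labels. By its title the study asks what the immune cells in these tumors express when Usp18 is removed from the myeloid lineage.

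The targeted gene went against the label: Usp18 stood at 18.8 CPM (counts per 1e6: the UMIs of the gene per 1e6 UMIs of the class) in control phagocytes and 90.6 CPM in the other library. Reads from the 3' end need not reach the deleted exons, and whether they did was not tested. Lyz2, the Cre locus, went with the label, at 9622 and 17.4 CPM. The second library is therefore called the library labelled knockout. The libraries held 7754 and 6063 barcodes (control first, here and below), with medians of 2600 and 4455 UMIs, and 8 barcode sequences occurred in both. Of the cells kept after filtering, 89.9% and 90.8% were assigned to a class by marker genes. Classes are named for their markers and mean "like" throughout. Of the cells that held transcripts of either Xist or Y-linked genes but not both, Xist cells made up 36.5% and 86.1%. Cells gated as melanoma were present despite the sort (156 and 366 cells), and in them Ptprc was at 12.4 and 7.90 CPM, against 615 and 494 CPM in phagocytes.

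All 7 members lie on the distal part of chromosome 1, within 173350879 to 174031810 on GRCm38 (the build that mm10 names), among the 12 family genes looked up here. Aim2 (ENSMUSG00000037860) and Pyhin1 (ENSMUSG00000043263, named Ifi209 in GENCODE M21) are on the plus strand. Ifi204 (ENSMUSG00000073489), Mndal (ENSMUSG00000090272), Mnda (ENSMUSG00000026536, named Ifi211 in M21), Ifi203 (ENSMUSG00000039997) and Ifi205 (ENSMUSG00000054203) are on the minus strand. The annotated span of Mndal contains Mnda and overlaps Ifi203 on the same strand. The family arose by duplication, and parts of the 3' ends, where these libraries are read, are near copies. Of the 50-base words in the last 400 bases of the coding transcripts, Ifi205 shared 87.5% and Mnda 85.2% with other family genes, nearly all between these 2. Pyhin1 shared 63.8% with its neighbour BC094916. Mndal shared 15.7% to 17.4%, Ifi203 at most 2.85%, and Ifi204 and Aim2 shared 0%. Counts of Ifi205, Mnda and Pyhin1 are therefore uncertain, whether by reads left out or by reads given to another copy. How reads that fit several copies were counted is not given in the sources used here.

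The sequence just before the start site is shown for 6 members, of which 4 carry the same short element there and the 2 others do not. Whether the element goes with the differences between the libraries was not tested. RefSeq promoters of GRCm38.p6 were matched for 6 of the 7 members, all but Ifi204. Each line gives the 150 bases before an annotated start site, 5′ to 3′ on the gene's own strand, with matches to the searched pattern in capitals. The pattern, the core of the interferon-stimulated response element, is GAAA, then any 2 bases, then GAAA, searched on both strands.
Ifi203, chr1:173942493-173942642, minus strand: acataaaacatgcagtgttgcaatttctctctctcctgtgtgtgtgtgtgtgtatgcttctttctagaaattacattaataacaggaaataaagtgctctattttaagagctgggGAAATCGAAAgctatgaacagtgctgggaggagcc
Mndal, chr1:173880188-173880337, minus strand: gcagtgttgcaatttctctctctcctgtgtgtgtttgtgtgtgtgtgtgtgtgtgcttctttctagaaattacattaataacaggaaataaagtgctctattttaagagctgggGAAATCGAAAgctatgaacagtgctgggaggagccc
Mnda, chr1:173913047-173913196, minus strand: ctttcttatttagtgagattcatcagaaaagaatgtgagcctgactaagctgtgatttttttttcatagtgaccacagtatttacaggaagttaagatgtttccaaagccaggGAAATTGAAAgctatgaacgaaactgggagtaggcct
Ifi205, chr1:174031756-174031905, minus strand: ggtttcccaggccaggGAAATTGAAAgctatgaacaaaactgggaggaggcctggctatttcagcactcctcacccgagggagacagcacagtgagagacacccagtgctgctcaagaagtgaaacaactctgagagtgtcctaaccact
Pyhin1, chr1:173630709-173630858, plus strand: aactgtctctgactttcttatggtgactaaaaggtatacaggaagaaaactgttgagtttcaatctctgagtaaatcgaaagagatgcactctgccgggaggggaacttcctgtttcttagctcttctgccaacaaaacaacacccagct
Aim2, chr1:173420454-173420603, plus strand: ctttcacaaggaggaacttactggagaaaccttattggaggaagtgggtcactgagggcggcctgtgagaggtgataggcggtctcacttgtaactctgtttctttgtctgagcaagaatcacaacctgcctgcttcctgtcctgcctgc

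RefSeq gives Ifi203 and Mndal a further promoter each, not shown. That of Ifi203 holds no match, and that of Mndal holds a match on the reverse strand only. In the promoters shown of Ifi203, Mndal and Mnda the element begins 35, 36 and 37 bases before the start site, and in Ifi205 it begins 134 bases before. The copy in Ifi203 and Mndal is GAAATCGAAA, and that in Mnda and Ifi205 differs from it by C6T (positions counted from 1 at the 5′ end of the element). The closest stretch in Pyhin1 begins 79 bases before the start site and differs by G1T, so it misses the searched pattern. The closest in Aim2 has 4 mismatches. Of all 32544 promoters of the table, each 300 bases long (250 before to 50 after the start), 3.45% hold it. The windows of the 6 members held neither TTCNNNGAA, the gamma-activated sequence found in 8.33% of promoters, nor GGAA, any 2 bases and GAAA, an ETS-IRF composite element found in 2.73%, whose end is shared with the first pattern. A match is a description of letters and not of a bound site.

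In the control library the members fell into 2 patterns of expression across cell classes. Ifi204, Ifi205 and Mnda were measured mainly in myeloid cells, but NK cells held Mnda at 34.8 CPM, beside 44.5 CPM in phagocytes. Ifi203, Mndal, Pyhin1 and Aim2 stood higher in control T, NK and B cells than in control phagocytes (monocytes and macrophages pooled). Single myeloid classes could stand higher, as neutrophils did for Aim2. In the library labelled knockout Aim2 and the B-cell values of these genes kept this order. Pyhin1 did not in T and NK cells (96.6 and 80.8 CPM, phagocytes 203 CPM), nor Ifi203 in NK cells (193 CPM, phagocytes 254 CPM). Mndal in T cells lay near phagocytes (280 and 283 CPM). Because 3' UMIs were not scaled by transcript length, each gene is compared with itself across classes and not with other genes. Intervals in brackets are exact 95% counting intervals. They cover counting error only.

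Ifi204 codes for p204, a nuclear and cytosolic DNA-binding protein related to human IFI16. In the control library it stood at 378 CPM (360 to 396) in monocytes, 221 CPM (211 to 231) in macrophages and 126 CPM in neutrophils. Dendritic cells followed, from 32.6 CPM in pDCs to 61.9 CPM in cDC2. In control B cells Ifi204 gave 4 UMIs and in control T cells 13 UMIs, which is 0.679% and 1.07% of the phagocyte level. The 6 reference genes of phagocytes (Cd68, Cd14, Clec4n, Msr1, C5ar1 and Fcgr1) summed to 1.07% and 0.775% of their own phagocyte level in the same cells, so these B-cell and T-cell values lie near the level of free RNA. Control NK cells gave 7 UMIs of Ifi204, which is 4.42% of its phagocyte level, against 1.33% for the reference genes.

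Ifi205, a short member whose protein is also called D3, had its peak in cDC1, the cross-presenting dendritic cells, with 250 CPM (227 to 275) in control and 349 CPM (321 to 378) in the library labelled knockout. In control monocytes it was at 15.9 CPM and in control macrophages at 4.48 CPM. It gave 0 UMIs in the control T, NK and B cells, which allows up to 0.679 CPM in T cells and 1.40 CPM in B cells. Mnda was likewise highest in control cDC1, at 85.1 CPM (72.1 to 99.8), next to 68.6 CPM (61.2 to 76.8) in monocytes, whose intervals overlap. In control macrophages it was at 31.8 CPM (28.1 to 35.9). Control NK cells held Mnda at 34.8 CPM from 20 UMIs, and control B cells held 1 UMI. The shared 3' ends of Ifi205 and Mnda were not resolved further.

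Ifi203 and Mndal stood high in control lymphocytes. Ifi203 stood at 396 CPM (369 to 423) in control B cells, 290 CPM in NK cells and 266 CPM (251 to 282) in T cells (310 CPM in CD4 T cells), against 182 CPM in monocytes and 104 CPM in macrophages. Mndal stood at 419 CPM in control NK cells and 399 CPM (373 to 427) in B cells, 274 CPM in T cells and 163 CPM in monocytes. The B-cell and monocyte intervals do not overlap for either gene. Pyhin1 was highest in control B cells, at 228 CPM (208 to 249), with 118 CPM in monocytes, 114 CPM in migratory DCs and 106 CPM in T cells, 3 levels that lie close together. Aim2 had its highest control level in neutrophils, at 147 CPM from 78 UMIs in 451 cells. B cells (81.3 CPM), T cells (74.7 CPM) and cDC1 (67.1 CPM) came next for Aim2, and macrophages (33.4 CPM) were among the lowest. In cells gated as melanoma all 7 members were between 0 and 3.06 CPM in the control library.

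**Figure D1:**
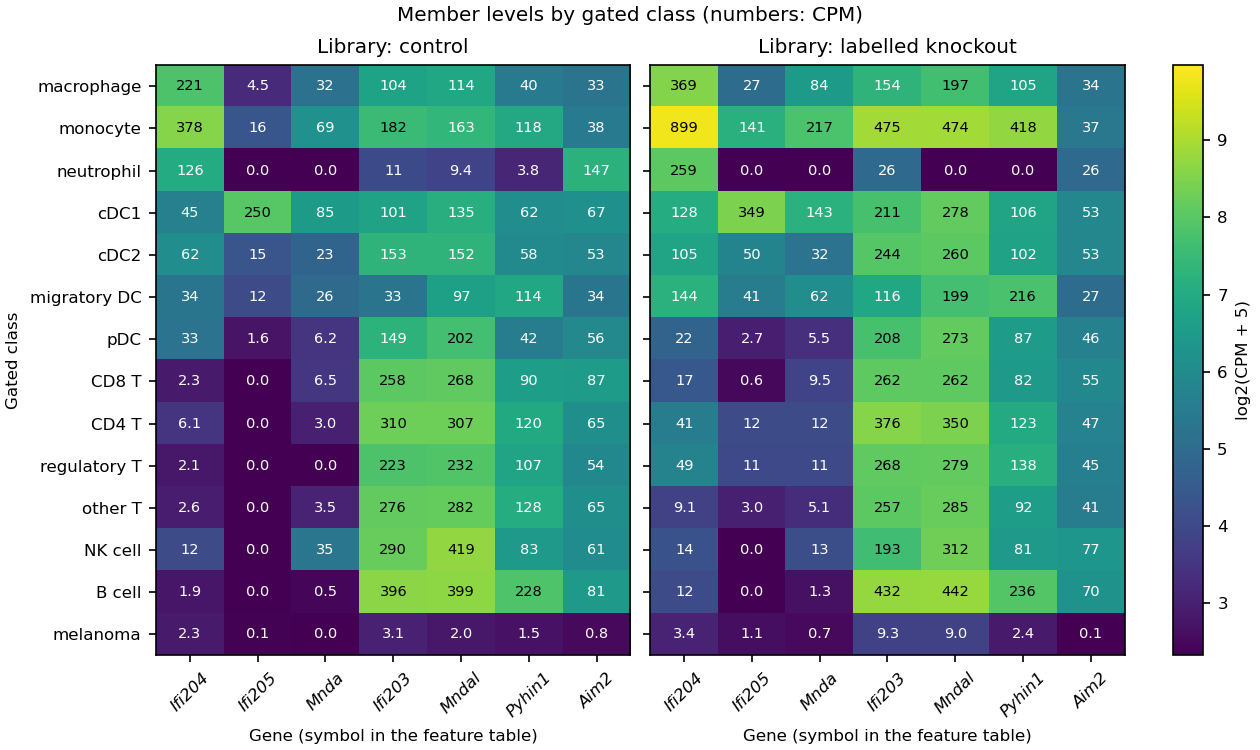
CPM of the 7 members (columns) in 14 gated classes (rows) of the control library (left) and the library labelled knockout (right), with colour on a log2(CPM + 5) scale and the CPM printed in each cell. Ifi204, Ifi205 and Mnda are near 0 in control T and B cells, Ifi203 and Mndal are high there, NK cells hold Mnda at 34.8 CPM, and melanoma cells are low for all members. The neutrophil row of the library labelled knockout rests on 24 cells.

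Across 22 profiles (class by library, for classes with at least 100 cells in each library), likeness was described by Pearson's r of log2(CPM + 5), a description over profiles that share libraries. The Ifi203 and Mndal profiles were most alike, with r = 0.97, followed by Aim2 and Mndal (0.91), Mndal and Pyhin1 (0.90), Ifi204 and Mnda (0.88) and Aim2 and Ifi203 (0.87). By Spearman's r, which uses ranks, the pairs as listed gave 0.93, 0.57, 0.64, 0.88 and 0.58, so their ranking changed. Aim2 and Pyhin1 had r = 0.78 by Pearson and 0.20 by Spearman. The likeness of Aim2 and Pyhin1 to the other genes of their pattern was thus weaker by rank. Between the patterns the likeness was low, with r = 0.18 for Ifi203 and Ifi204. Among 10964 genes, the most similar profile outside the family was that of Slfn8 for Ifi203 (0.96), Fcgr1, the high-affinity Fc receptor, for Ifi204 (0.96), Taldo1 for Ifi205 (0.89) and Arpc2 for Mnda (0.91). For Mndal it was Sp100 (0.97), a nuclear body protein, for Aim2 it was the lymphoid transcription factor Ikzf1 (0.96), and for Pyhin1 it was Samhd1 (0.94), a dNTP hydrolase. By Spearman's r the same gene came first for Ifi203 and Ifi205, and another gene for each of the other members.

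In mononuclear phagocytes (monocytes and macrophages together, 1703 and 2529 cells), the members other than Aim2 had higher levels in the library labelled knockout. Ifi204 went from 275 to 535 CPM, a fold of 1.94 (1.87 to 2.02). Ifi203 went from 131 to 254 CPM, also a fold of 1.94 (1.84 to 2.06), and Mndal from 131 to 283 CPM (2.17-fold, 2.05 to 2.29). These 3 are the genes with little or moderate sharing of 3' ends. Pyhin1 went from 66.8 to 203 CPM (3.04-fold, 2.82 to 3.27). Mnda went from 44.5 to 126 CPM (2.82-fold, 2.58 to 3.10). Ifi205 went from 8.41 to 62.9 CPM (7.47-fold, 6.14 to 9.17). Aim2 stood at 35.1 CPM (32.0 to 38.5) and 34.7 CPM (32.2 to 37.3), a fold of 0.989 with an interval of 0.878 to 1.11, so at this depth a change beyond that range was not seen.

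For counts of genes, the ratio was taken as log2 of (CPM + 5) over (CPM + 5), which understates low genes, and a gene was called higher at 2-fold or more on that scale. In phagocytes 4 of the 7 members (Ifi205, Pyhin1, Mnda and Mndal) were called higher and 0 lower, where 0.824% of the 11778 measured genes were called higher and 0.0849% lower. The median log2 ratio was 1.09 over the members and -0.024 over all measured genes. Ifi204 (0.95) and Ifi203 (0.93) lay just under the 2-fold line. Without 1 cluster that held only barcodes of the library labelled knockout, described below, Mndal fell to 0.90 and 3 members stayed past the line. There is 1 pool per group, so these counts describe the libraries and carry no p-value.

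Taken over all their cells, the differences were larger in monocytes than in macrophages for each member other than Aim2. In monocytes 6 of the 7 were called higher, against 2.0% of 10120 measured genes, and in macrophages 3 of the 7, against 0.584% of 11304. Ifi204 went from 378 to 899 CPM in monocytes (log2 ratio 1.24) and from 221 to 369 CPM in macrophages (0.73). Ifi203 went from 182 to 475 CPM in monocytes (1.36), against 104 to 154 CPM in macrophages (0.55). Pyhin1 went from 118 to 418 CPM in monocytes (1.78) and from 39.8 to 105 CPM in macrophages (1.29). The monocyte and macrophage intervals of the fold do not overlap for Ifi203, Ifi204, Mndal and Pyhin1, but they do for Ifi205 and Mnda. Aim2 had a log2 ratio of -0.053 in monocytes and 0.014 in macrophages. The median log2 ratio of the members was 1.51 in monocytes and 0.76 in macrophages. Within the kinds of cell described below, these medians were 1.06 and 0.97 with Xist transcripts, which lie close together. With Y-linked transcripts they were 0.84 and 0.23.

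A larger share of phagocytes held transcripts of the members other than Aim2 in the library labelled knockout. After each cell was thinned to 1000 UMIs, Ifi204 was found in 22.6% (20.6 to 24.7) of 1647 control phagocytes and in 40.6% (38.6 to 42.6) of 2327 phagocytes of the library labelled knockout. Without thinning the shares were 65.9% and 78.7%, at median depths of 6448 and 6017 UMIs. B cells, which should lack Ifi204, gave thinned shares of 0.228% and 1.48% at median depths of 1500 and 1763 UMIs. The thinned share of Ifi205 went from 0.971% to 6.92%, that of Pyhin1 from 7.77% to 20.5%, and that of Mnda from 4.68% to 12.7%. For Aim2 it was 4.01% (3.11 to 5.07) and 3.31% (2.62 to 4.12), intervals that overlap. Cells with UMIs of 3 or more distinct members made up 4.98% of thinned control phagocytes and 20.1% of those labelled knockout. In monocytes alone that share was 7.55% and 31.4%.

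**Figure D2:**
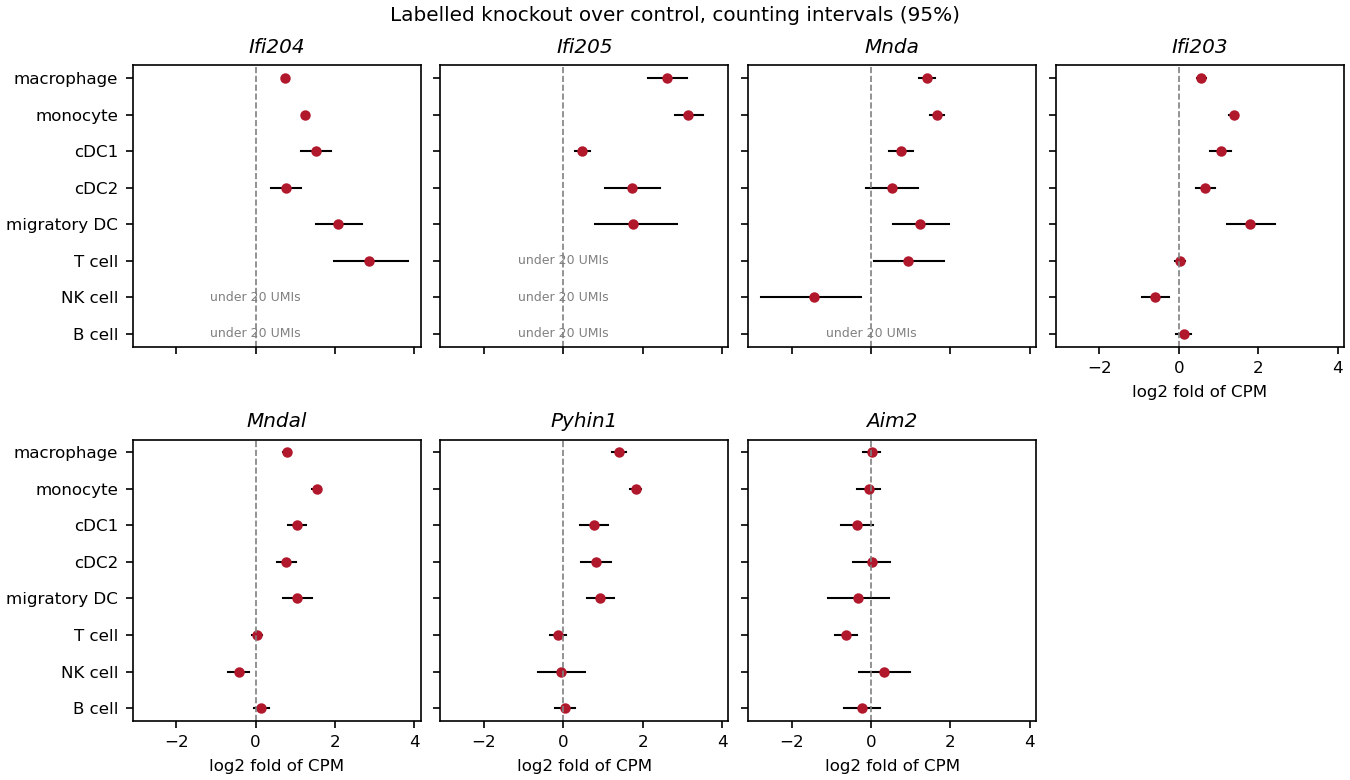
Fold of CPM, library labelled knockout over control, on a log2 axis for each member (panels) in 8 gated classes (rows), with points for the fold and bars for the exact 95% counting interval. Aim2 lies on or near the line of no change in macrophages and monocytes, the other members lie right of it there, and the lymphocyte values of Ifi203, Mndal and Pyhin1 lie near or left of it.

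Conventional and migratory dendritic cells, each taken as a whole, showed the same direction for most members, and pDCs did not reach a call. In cDC1, 3 of the 7 members (Ifi203, Ifi204 and Mndal) were called higher, against 1.28% of measured genes. Ifi203 went from 101 to 211 CPM in cDC1 and Ifi204 from 45.1 to 128 CPM, while Ifi205, already high there, had a fold of only 1.39 (1.23 to 1.58). In cDC2, Ifi205 alone was called higher (15.1 to 49.8 CPM, 1 of 7 against 0.916%). In migratory DCs 5 of the 7 were called higher, against a background of 4.04%, from 159 and 168 cells. That count was not reached within the kinds of cell described below, where cells were few. In migratory DCs with Xist transcripts (23 and 119 cells) 1 of the 7 was called higher (13.8% of genes) and 1 lower (4.75%). The median log2 ratio of the members there was 0.67, beside 0.065 over all measured genes. In those with Y-linked transcripts (82 and 17 cells) 0 of 4 measured members were called higher (4.3%) and 2 lower (9.3%), with medians of -0.55 and -0.060. In pDCs 0 of 5 measured members were called higher (1.07%), and Ifi204 stood at 32.6 and 21.9 CPM. Aim2 was called in none of cDC1, cDC2 and migratory DCs as a whole, with log2 ratios from -0.32 to 0.018.

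In lymphocytes the members of the second pattern differed by class. In B cells none of the 4 measured members was called, against 0.31%, with folds of 1.09 for Ifi203 (0.958 to 1.24), 1.11 for Mndal (0.973 to 1.26), 1.04 for Pyhin1 (0.868 to 1.23) and 0.861 for Aim2 (0.622 to 1.18). In T cells Ifi203 had a fold of 1.02 (0.939 to 1.12) and Mndal also 1.02 (0.939 to 1.11). Aim2 was lower in T cells, from 74.7 CPM (66.8 to 83.2) to 48.6 CPM (41.4 to 56.7), and the intervals do not overlap. It was lower in CD8 T cells (87.3 to 54.6 CPM) and had lower values in CD4 T cells (65.3 and 47.0 CPM) and regulatory T cells (54.3 and 44.6 CPM), whose fold intervals include 1. The log2 ratio of Aim2 in T cells was -0.57, and -0.28 when classes were taken from named clusters.

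Ifi204 was the only member called higher in T cells, 1 of 6 measured against 0.978%, from 13 to 71 UMIs (2.94 to 21.2 CPM). The reference genes of phagocytes rose beside it in those cells, from 0.775% to 2.56% of their phagocyte level, while Ifi204 went from 1.07% to 3.96%. Their part in this result was not tested. In NK cells 0 of the 5 measured members were called higher, against 2.46%. Of these 5, 1 was called lower (Mnda), against 3.26%. The median log2 ratio in NK cells was -0.42 over the members and -0.13 over all measured genes. A fold interval below 1 was found there for 3 members: Ifi203 (290 to 193 CPM), Mndal (419 to 312 CPM) and Mnda (34.8 to 12.8 CPM, from 20 and 9 UMIs). In NK cells with Xist transcripts 0 of 4 measured members were called lower (7.08% of genes), with medians of -0.25 and -0.092. In those with Y-linked transcripts it was also 0 of 4 (16.3%), with medians of -0.38 and -0.19.

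Among phagocytes, the level of the members differed by cluster, and the clusters named here are described by the genes that lead them. Cluster 23, led by Lipg, Rsad2, Ifit1bl1 and Isg15, held 80 gated phagocytes, all of the library labelled knockout. Its levels were above every other phagocyte cluster of at least 50 cells for 6 members: Ifi204 was at 2186 CPM, Mndal at 1699 CPM, Pyhin1 at 1211 CPM, Ifi203 at 1166 CPM, Mnda at 604 CPM and Ifi205 at 588 CPM. Aim2 in these cells was at 58.2 CPM (39.0 to 83.6), within the range of the other clusters. Most genes that lead this cluster are known as interferon-induced. The family genes were left out of the clustering, and so were Rsad2, Isg15, Ifit1bl1 and the other Ifit genes. Lipg and Cxcl10, which also lead the cluster, were not left out by name. The levels are a description, and library and cell state cannot be told apart in this cluster.

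The C1q and cycling clusters differed by member. In cluster 2, led by C1qa, C1qc and Ms4a7, with 375 and 484 phagocytes, Ifi204 went from 203 to 259 CPM and Ifi203 from 97.5 to 105 CPM. Pyhin1 went from 27.9 to 59.0 CPM in cluster 2 (2.12-fold, 1.71 to 2.64), and Mnda had a fold of 1.71 (1.38 to 2.13). Ifi205 stood at 2.30 CPM there, from 9 UMIs, and at 6.90 CPM, with an interval of the fold from 1.45 to 6.97. In cluster 12, led by the cycle genes Mki67 and Hist1h1b, Mndal was at 126 and 133 CPM and Pyhin1 at 31.2 and 38.8 CPM. The fold intervals of Ifi203, Ifi205, Mndal, Pyhin1 and Aim2 include 1 in cluster 12. In cluster 3, led by the chemokines Ccl24, Ccl7 and Ccl2, with 214 and 587 phagocytes, Ifi204 went from 337 to 679 CPM, Mndal from 90.5 to 306 CPM and Pyhin1 from 66.2 to 226 CPM. In cluster 1, led by Chil3, Dmkn and Vcan, with 380 and 516 phagocytes, Ifi205 went from 26.9 to 111 CPM and Pyhin1 from 144 to 372 CPM. Larger folds were found in cluster 8, led by Arg1, Hspa1a and Ppbp, with 232 and 223 phagocytes. Mndal went there from 49.9 to 295 CPM (5.91-fold, 4.51 to 7.85), Pyhin1 from 60.2 to 309 CPM and Ifi203 from 72.1 to 308 CPM. In cluster 18, led by Mgst1, Tppp3 and Chil3, Aim2 went from 46.2 to 80.6 CPM (1.74-fold, 1.12 to 2.74). Its fold interval included 1 in every other cluster where it was measured in both libraries. Cluster 1 was the largest among control phagocytes (22.3%) and cluster 3 the largest among those labelled knockout (23.2%), so the pooled phagocyte values mix clusters in different shares.

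**Figure D3:**
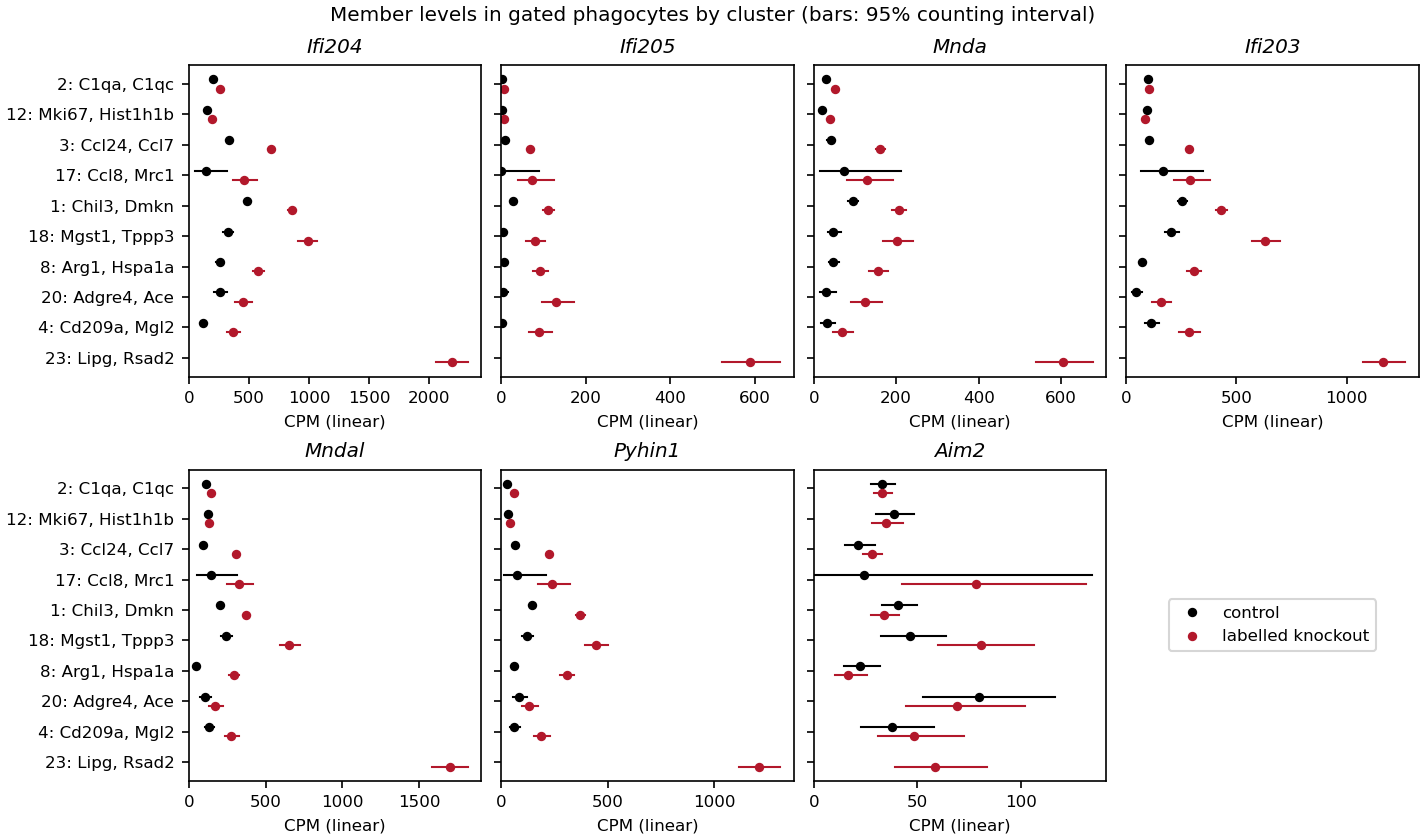
CPM of each member (panels, linear axes) in gated phagocytes of 10 clusters (rows, named by number and 2 leading genes), with black points for control, red points for the library labelled knockout and bars for exact 95% counting intervals. Cluster 23 is highest for 6 members, and Aim2 shows no common direction. Ifi203 differs little in clusters 2 and 12. Mndal differs little in cluster 12 and has a fold of 1.29 (1.15 to 1.44) in cluster 2.

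The 2 kinds of cell, with Xist or with Y-linked transcripts, gave different sizes. In phagocytes with Xist transcripts (417 and 1660 cells), 5 of the 7 members were called higher, against 1.31% of genes, and the median log2 ratio of the members was 1.12. In phagocytes with Y-linked transcripts (789 and 343 cells), 1 of the 7 was called, Ifi205, against 0.691%, and the median was 0.21. Ifi204 went from 282 to 605 CPM in cells with Xist and from 259 to 299 CPM in cells with Y-linked transcripts. Pyhin1 went from 81.7 to 246 CPM with Xist and from 56.4 to 66.0 CPM with Y-linked transcripts. Ifi203 went from 163 to 299 CPM with Xist, but from 111 to 100.1 CPM with Y-linked transcripts (fold 0.905, 0.798 to 1.02). For Ifi204 and Pyhin1 the control levels of the 2 kinds lie closer together than those of the library labelled knockout. A cell's kind was read as that of its mouse, but free RNA can also give a kind. Cells gated as melanoma, which come from the injected line, were split too. In control 8 of them held Xist and 14 held Y-linked transcripts, against 44 and 6 in the library labelled knockout. The part of free RNA in the kinds was not tested. The labels do not say which mice were pooled, so mouse, sex and host cannot be told apart here.

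The phagocytes with Y-linked transcripts in the library labelled knockout were mostly macrophages, 257 against 86 monocytes, whereas those with Xist were 784 macrophages and 876 monocytes. Within monocytes the 2 kinds lay nearer to each other. In monocytes with Y-linked transcripts Ifi204 went from 367 to 654 CPM (log2 ratio 0.83), Ifi205 from 14.6 to 132 CPM (2.81) and Pyhin1 from 101 to 213 CPM (1.04), and 3 of 7 members were called, against 2.2%. In monocytes with Xist those log2 ratios were 1.06, 2.35 and 1.41, and 5 of 7 were called, against 3.15%. Within macrophages 0 of 7 were called in cells with Y-linked transcripts, against 0.478%, and 3 of 7 in cells with Xist, against 1.15%. Aim2 was called in neither kind, in monocytes or macrophages.

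**Figure D4:**
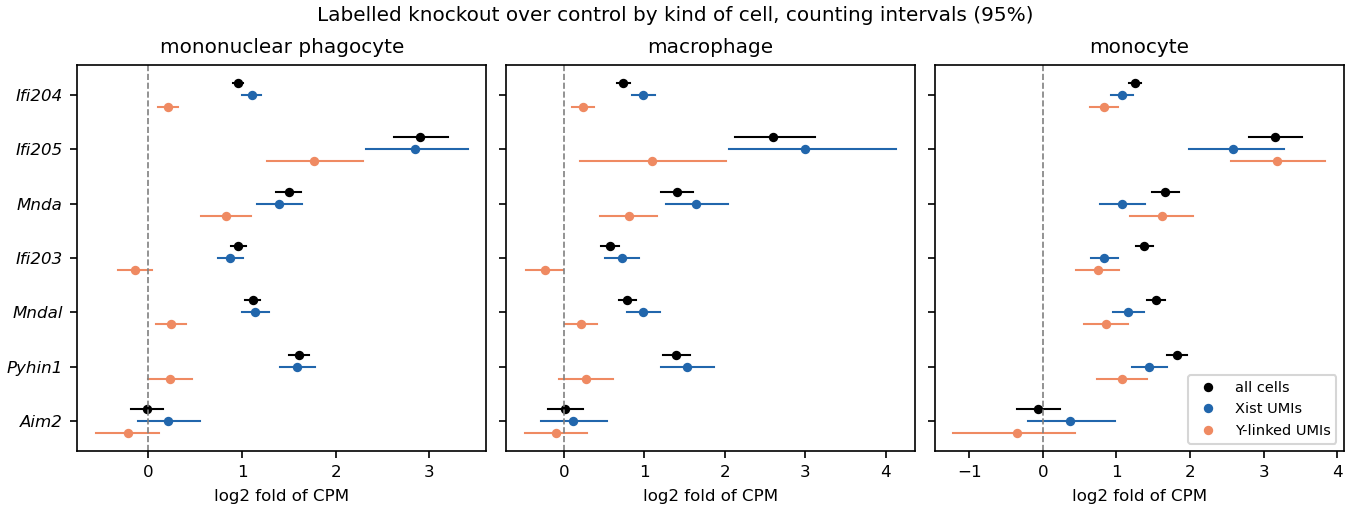
Fold of CPM on a log2 axis, library labelled knockout over control, for the 7 members (rows) in all phagocytes, macrophages and monocytes (panels), for all cells (black), cells with Xist transcripts only (blue) and cells with Y-linked transcripts only (orange), with exact 95% counting intervals. In all phagocytes and in macrophages the orange points lie left of the blue ones for each member, and in monocytes the intervals of the 2 kinds overlap for all 7.

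The other genes of the family that were looked up in the feature table are AI607873, BC094916, Pydc3, Pydc4 and Ifi202b, which border or separate the members on chromosome 1. In phagocytes Pydc4 went from 16.5 to 87.8 CPM (log2 ratio 2.11), AI607873 from 221 to 334 CPM (0.59) and BC094916 from 3.16 to 11.4 CPM (1.00). Pydc3 gave 3 UMIs in control phagocytes and 787 in the other library, which is a ratio of 164 with a counting interval of 55.8 to 795. Ifi202b gave 0 and 4 UMIs. The promoters of AI607873, BC094916, Pydc3 and Pydc4 hold GAAATCGAAA too, 41 to 79 bases before the start site.

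Genes that work with the family were taken from 3 lists. Of the DNA-sensing list, 1 of 9 measured genes was called higher in phagocytes, against 0.824% of all measured genes, and 0 lower. That gene was Zbp1, a sensor of nucleic acids in the Z form, which went from 85.3 to 244 CPM. The cGAS gene Mb21d1 had a log2 ratio of 0.41 and the STING gene Tmem173 of 0.046. Trex1, a DNA exonuclease, gave 0 UMIs in both libraries. Of the inflammasome list 0 of 12 were called in either direction. Pycard, the adaptor of AIM2, went from 358 to 474 CPM (0.40), Casp1 had a log2 ratio of 0.39 and Casp4 of 0.79. Of the interferon signal relay list 1 of 12 was called, Irf7, from 64.5 to 333 CPM (2.28). Stat2 had a log2 ratio of 0.95, and the receptor genes Ifnar1 (-0.15) and Ifnar2 (0.0091) lay near 0. The medians were 0.11, 0.31 and 0.0036 for the 3 lists, beside 1.09 for the members.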

How the data were processed

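The deposited matrices hold raw UMI counts per gene and barcode, made by the authors with Cell Ranger 3.0.1 on mm10 per the submitters' processing notes. The annotation behind the counts is not given in the sources used here. Barcodes needed at least 200 genes and no more than 10% mitochondrial UMIs, and Scrublet's highest scores were removed (481 and 294 barcodes). A cell joined the class whose scaled marker score was at least 1.5 times the next, with at least 2 markers; 498 and 399 cells lay near that line (under 2 times). Clusters came from Leiden (scanpy 1.11.5). The feature table had no entry for 6 of 148 markers. UMIs were summed per class and library, expressed as CPM, and compared as log2 ratios with a pseudocount of 5 CPM for genes with at least 20 UMIs; intervals are exact Poisson or Clopper-Pearson (scipy 1.17.1). With 1 library per group no test was run. The script was tested on simulated data. Members and lists were chosen with earlier results of these data known. Named genes were the members, the other family genes looked up, genes of the 3 lists that were called or that act with AIM2 or STING, and the gene with the most similar profile. Alternatives included edgeR 4.0.16 (TMM). Coordinates come from GENCODE M21, in which 98.7% of gene identifiers were found.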

Additional observations from a re-analysis of the deposited data

Results flagged for a closer look

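Some differences between the libraries ran in opposite directions in 2 kinds or classes of cell, each with a counting interval that excludes no difference. The difference between the kinds or classes was not tested. In macrophages, the log2 ratio of Ifi203 was 0.69 where cells held Xist transcripts and -0.23 in cells with Y-linked transcripts. In NK cells, 3 members were lower in the library labelled knockout, while they were higher in phagocytes. The median log2 ratio over all measured genes was -0.13 in NK cells and -0.024 in phagocytes. Ifi203 had a log2 ratio of -0.58 in NK cells and 0.93 in phagocytes. Mndal had -0.42 in NK cells and 1.09 in phagocytes. Mnda had -1.16 in NK cells, from 20 and 9 UMIs, and 1.40 in phagocytes.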

How the results depend on the processing

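The median log2 ratio of the members in mononuclear phagocytes, 1.09, and the count of members called higher, 4 of 7, were recomputed under 15 alternatives each. The median moved beyond its counting error to 1.23 with a mitochondrial limit of 5%, 0.92 with classes from named clusters, 1.40 after thinning to 1000 UMIs, 1.38 with the mean of per-cell CPM, 0.21 in cells with Y-linked transcripts only, and 0.90 without the cluster found in 1 library only, an alternative added after seeing the data. The count became 1 in cells with Y-linked transcripts and was from 3 to 6 under the others. Mndal in migratory DCs had a log2 ratio of 1.00, and of -0.032 in cells with Xist transcripts and -1.34 in cells with Y-linked transcripts, from 24 and 46 control UMIs. The causes were not tested. Over 890 alternative values of members and classes, 737 stayed within counting error, 151 moved and these 2 changed the direction of a called value. Depth limits the values of Ifi205 and Mnda in lymphocytes and of all members in neutrophils of the library labelled knockout. No paired analysis was possible because each group is 1 library, for which the labels give no replicate number.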
